A study of Mus musculus with 4 samples.

Results

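Homologous recombination and DNA repair genes were examined in engineered mouse neural tissue, and the group holds 48 of the 23874 genes in the count table. The members were chosen by symbol, with earlier results of these data known, as named genes of homologous recombination, the Fanconi anaemia pathway, the DNA damage checkpoint, mismatch repair, base excision repair and end joining. The tissue was a gel culture of neurospheres (clusters that neural progenitors form when grown in suspension) set in Matrigel, a basement membrane extract, under medium with 20 ng/ml basic fibroblast growth factor. In the EF group an electric field of 150 mV/mm was applied for 30 min a day on 3 days and culture went on for another 7 days. The noEF group carried the same gel and medium and was left unstimulated. Each group had 2 RNA-seq libraries, called EF 1, EF 2, noEF 1 and noEF 2, although the labels state 3 replicates per group. That noEF was gel tissue rests on the sample labels, as the design text gives stem cell suspensions as its control. The mouse strain and age are not stated in the labels, and they do not say whether the replicates came from separate cultures. P-values therefore measure the spread between these libraries, which may be technical.

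Homologous recombination repairs a broken chromosome by copying the intact sister chromatid, so it works in cells that have replicated their DNA. Ends are cut back to single strands, BRCA proteins prepare these to invade the intact copy, and the resulting joints are then resolved. The Fanconi pathway removes crosslinks that block forks, the ATR and CHK1 kinases hold the cycle while forks stall, and end joining seals breaks in any phase. Many of the recombination, Fanconi and checkpoint genes are transcribed in a wave at the start of S phase through the E2F factors, while the genes of end joining and single-strand break repair are transcribed at a steadier rate. Proliferating neural progenitors depend on both kinds of repair, since each division exposes replication errors and fork breaks. On this textbook basis, and with earlier results of these data known, 24 members were classed as S-phase-linked and 24 as constitutive.

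A set of S-phase-linked recombination, Fanconi and checkpoint genes was higher in EF tissue, and no constitutive gene passed the test. In edgeR (quasi-likelihood F test, p-values adjusted over all genes by Benjamini-Hochberg) 10 of 24 S-phase-linked members rose and 0 fell. These were Fancd2, Fanci, Topbp1, Chek1, Clspn, Rad51ap1, Brca1, Brip1, Msh6 and Xrcc2. Of these, Topbp1 and Msh6 were of debatable class. With all members of debatable class moved to the other class, 8 S-phase-linked and 2 constitutive members were called higher. Of 24 constitutive members 0 were called in either direction. An unadjusted edgeR p under 0.05 was found for 6 of them, and for 3393 of the 14263 genes tested. DESeq2 and limma-voom also called 0 constitutive members. Scaling by library totals called 2, and 1 each was called with no filter and with the length and GC trend removed. Among all 14263 genes tested, 3.83% were called higher and 4.99% lower, 8.82% in all. These shares stand for 546 and 712 genes. Scaling by library totals gave 1138 higher and 505 lower genes, and 15 members were then called, all of them higher. The median log2 fold change was 0.73 (1.65-fold) for the S-phase-linked members, 0.32 (1.25-fold) for the constitutive members and 0.01 for all genes tested. All 48 members passed the filter on low counts, with between 28 and 3407 counts in a library. Without EF 1 fewer members were called, and Fancd2, Fanci, Chek1 and Brca1 kept their calls. Fewer genes were also called over all genes, both higher and lower. Of the called members lost there, Msh6, Xrcc2 and Brip1 had log2 fold changes of 0.40, 0.76 and 0.92 without EF 1. With EF 1 they were at 0.44, 0.80 and 0.99, and these 3 also lost the call without EF 2. Rad51ap1, Clspn and Topbp1 moved further, from 1.14, 0.81 and 0.57 with EF 1 to 0.74, 0.65 and 0.45 without it.

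E2F sites lie in the promoters of many cell cycle genes, so the promoter sequences of the called members are shown beside those of the constitutive members with the smallest differences. RefSeq promoter windows on GRCm38.p6, each from 250 bases before to 50 bases after a gene's start, were matched by symbol for 39 of the 48 members. The E2F site was searched as TTNNCGC on both strands, where NN was CC, CG, GC or GG, and overlapping matches were counted separately. The CHR element, TTTGAA on either strand, was searched as well. Capitals mark every match in the windows below. Shown are, among the members with a window, the 5 called ones with the smallest p and the 3 constitutive members with the smallest change that had a single window.
Fanci (S-phase-linked, chr7:79392088-79392387, plus strand): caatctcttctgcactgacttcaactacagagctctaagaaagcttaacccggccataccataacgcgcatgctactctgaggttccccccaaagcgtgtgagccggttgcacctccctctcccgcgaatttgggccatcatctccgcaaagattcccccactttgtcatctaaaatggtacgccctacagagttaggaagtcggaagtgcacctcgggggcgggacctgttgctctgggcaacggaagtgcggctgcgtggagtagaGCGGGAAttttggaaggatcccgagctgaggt
Topbp1 (S-phase-linked, chr9:103305077-103305376, plus strand): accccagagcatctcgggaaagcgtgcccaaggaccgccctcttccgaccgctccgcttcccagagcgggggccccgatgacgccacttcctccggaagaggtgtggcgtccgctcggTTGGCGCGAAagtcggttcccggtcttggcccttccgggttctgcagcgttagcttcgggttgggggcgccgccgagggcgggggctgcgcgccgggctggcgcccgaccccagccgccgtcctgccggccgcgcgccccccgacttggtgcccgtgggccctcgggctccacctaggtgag
Chek1 (S-phase-linked, chr9:36726609-36726908, minus strand): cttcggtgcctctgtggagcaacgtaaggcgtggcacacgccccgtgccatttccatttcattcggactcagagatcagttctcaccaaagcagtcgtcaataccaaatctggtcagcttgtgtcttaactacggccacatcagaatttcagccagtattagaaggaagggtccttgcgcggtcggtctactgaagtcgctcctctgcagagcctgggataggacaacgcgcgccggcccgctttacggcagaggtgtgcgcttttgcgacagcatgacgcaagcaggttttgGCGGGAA
Clspn (S-phase-linked, chr4:126556730-126557029, plus strand): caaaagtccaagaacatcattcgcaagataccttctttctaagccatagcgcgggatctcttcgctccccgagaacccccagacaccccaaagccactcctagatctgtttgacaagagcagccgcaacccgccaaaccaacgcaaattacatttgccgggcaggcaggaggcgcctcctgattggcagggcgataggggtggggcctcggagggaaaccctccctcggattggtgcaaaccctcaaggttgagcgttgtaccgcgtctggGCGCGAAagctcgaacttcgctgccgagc
Rad51ap1 (S-phase-linked, chr6:126939538-126939837, minus strand): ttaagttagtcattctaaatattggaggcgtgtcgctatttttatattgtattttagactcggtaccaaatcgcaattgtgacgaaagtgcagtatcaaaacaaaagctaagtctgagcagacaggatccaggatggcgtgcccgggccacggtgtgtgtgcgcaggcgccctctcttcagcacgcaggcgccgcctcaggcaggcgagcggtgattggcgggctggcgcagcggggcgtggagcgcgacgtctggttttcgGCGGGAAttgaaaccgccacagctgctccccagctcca
Xrcc5 (constitutive, chr1:72307171-72307470, plus strand): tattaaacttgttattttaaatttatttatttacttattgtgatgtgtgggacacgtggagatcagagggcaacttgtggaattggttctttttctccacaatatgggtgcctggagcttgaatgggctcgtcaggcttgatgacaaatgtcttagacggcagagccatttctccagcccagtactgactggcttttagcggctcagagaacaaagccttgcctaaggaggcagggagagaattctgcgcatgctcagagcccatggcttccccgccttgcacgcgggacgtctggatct
Fancl (constitutive, chr11:26386834-26387133, plus strand): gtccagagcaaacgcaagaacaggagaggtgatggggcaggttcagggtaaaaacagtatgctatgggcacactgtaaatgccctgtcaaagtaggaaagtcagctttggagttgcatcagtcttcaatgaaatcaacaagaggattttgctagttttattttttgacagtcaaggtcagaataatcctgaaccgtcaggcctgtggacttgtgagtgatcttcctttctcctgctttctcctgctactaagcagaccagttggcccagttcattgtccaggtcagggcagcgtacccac
Xrcc6 (constitutive, chr15:82016119-82016418, plus strand): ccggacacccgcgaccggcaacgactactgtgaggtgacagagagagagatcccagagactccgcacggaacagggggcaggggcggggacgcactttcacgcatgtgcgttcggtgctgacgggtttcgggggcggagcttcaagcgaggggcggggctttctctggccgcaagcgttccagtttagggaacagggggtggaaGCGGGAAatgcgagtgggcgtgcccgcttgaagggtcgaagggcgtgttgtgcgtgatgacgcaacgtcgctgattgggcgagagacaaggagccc
An E2F match was present in the single window of Fanci, Chek1, Clspn and Rad51ap1, on base 269, 294, 272 and 263 of the window counted from its 5′ end. All of these lie downstream of the annotated start at base 251. Topbp1 had 2 overlapping matches that began on bases 119 and 122. Xrcc5 and Fancl had no match, while Xrcc6, whose level did not pass the test either, had 1 on base 205. A match was thus found for called and uncalled genes alike. Over all windows of the class, 15 of 21 S-phase-linked windows (71.4%) and 8 of 22 constitutive windows (36.4%) held an E2F match. Fancd2 and Xrcc2, which were called, had no window. All 8 windows of the other called members held 1 or 2, against 16.3% of the 13516 windows of tested genes and 9.57% of all 32851 windows. The class was set with the known role of E2F in view, so these shares describe the genes and are not independent of the grouping. The CHR element was found in 3 S-phase-linked windows (14.3%) and 1 constitutive window (4.55%), against 11.8% of the windows of tested genes. CpG content was alike, with medians of 7 and 7.5 CpG per 100 bases in the S-phase-linked and the constitutive windows and 6.67 in those of tested genes.

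The ATR and CHK1 checkpoint branch held 3 of the called genes. Here and below each role holds few genes, and differences between roles were not tested. Topbp1, which encodes the activator of the ATR kinase (ENSMUSG00000032555, GRCm38 chromosome 9, 103305215 to 103350428), had 74.4 and 64.0 CPM (counts relative to the TMM-scaled library size) in EF and 47.0 and 46.4 CPM in noEF, which gave a log2 fold change of EF over noEF of 0.57 ± 0.11 (SE) and an edgeR adjusted p of 0.00453. Clspn, the gene of claspin, which brings CHK1 to ATR (chromosome 4, 126556935 to 126593903), had 26.2 and 21.5 CPM in EF and 13.2 and 14.2 CPM in noEF. Its log2 fold change was 0.81 (SE 0.16, edgeR adjusted p = 0.00587). In both genes the 2 EF libraries lay above the 2 noEF libraries, with EF 1 the highest. Chek1, the gene of the CHK1 kinase itself (chromosome 9, 36708482 to 36727065), had 17.6 and 15.8 CPM in EF and 7.81 and 9.52 CPM in noEF. It was 1.93-fold higher (log2 fold change 0.95, SE 0.18, edgeR adjusted p = 0.00508), and it was called under all 12 alternative settings. Topbp1 and Clspn lost their calls in 1 alternative, without EF 1 (edgeR adjusted p = 0.0797 and 0.0569).

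The upstream kinases and sensors did not pass the test. Atr, whose kinase the called genes serve, had 12.2 and 11.4 CPM in EF and 10.2 and 9.69 CPM in noEF (log2 fold change 0.25, SE 0.18, edgeR adjusted p = 0.452). Its partner Atrip was at 0.15 (SE 0.20), and its noEF libraries lay on either side of both EF libraries. Exons of Atrip share 1147 bases with Trex1 on the same strand, and reads there cannot be assigned to 1 gene. The strand setting of the counting is not given, so the same holds for genes that overlap on opposite strands. Atm, the kinase that responds to double-strand breaks, had 6.78 and 3.32 CPM in EF and 2.70 and 2.29 CPM in noEF. The log2 fold change, 1.02 with an SE of 0.36 (edgeR adjusted p = 0.0974), came with a wide spread, as EF 1 stood far above the other libraries. Without EF 1 it was 0.41, and without EF 2 it was larger and called (edgeR adjusted p = 0.0144), as it was with no filter (adjusted p = 0.0223). Chek2, the kinase downstream of ATM, was at 0.39 (SE 0.20).

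Of the MRN complex, which senses and trims broken ends, 0 of 3 subunits were called, against 8.82% of all genes tested. Nbn and Mre11a had log2 fold changes of 0.39 (SE 0.14) and 0.44 (SE 0.17), neither called by edgeR (adjusted p = 0.0926 and 0.114), and in both the EF libraries lay above the noEF libraries. Both were called when libraries were scaled by their totals (edgeR adjusted p = 0.0355 and 0.0496). Nbn was also called when each library's trend with exon length and GC content was taken out. Rad50, the third subunit, was at 0.03 (SE 0.20), with 10.7 and 9.80 CPM in EF inside the noEF values of 11.4 and 8.71 CPM. Trp53bp1, which protects ends from resection, had a log2 fold change of -0.11 (SE 0.14), and its noEF libraries differed by more, at 55.6 and 69.6 CPM. Tubgcp4, which overlaps 2130 bases of Trp53bp1 exons on the opposite strand, was called higher (1.17, edgeR adjusted p = 0.0472).

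Among the genes of end resection 0 of 4 were called by edgeR, against 8.82% of all genes tested. An unadjusted edgeR p under 0.05 was found for 2, against 3393 of all 14263 genes tested. DESeq2 also called 0 of the 4. Other alternatives called Dna2 (2 of 12), Exo1 (3 of 12) and Blm (1 of 12). Dna2, a nuclease and helicase, came nearest, with 7.82 and 6.82 CPM in EF and 4.06 and 4.76 CPM in noEF (log2 fold change 0.73, SE 0.25, edgeR adjusted p = 0.080). Exo1, the exonuclease of long-range resection, differed more between the EF replicates than between the groups, at 15.2 and 8.31 CPM in EF and 5.53 and 9.28 CPM in noEF. The RecQ helicase gene Blm was as uneven, at 10.9 and 6.62 CPM in EF and 7.16 and 4.22 CPM in noEF. Rbbp8, which starts resection as CtIP, was at 0.41 (SE 0.18, edgeR adjusted p = 0.175).

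Of the 4 genes of the BRCA complexes Brca1 was called, where 3.83% of all genes tested were called higher. Brca1, the ubiquitin ligase that directs breaks to recombination (ENSMUSG00000017146, chromosome 11, 101488764 to 101551955), had 12.4 and 13.3 CPM in EF and 5.93 and 8.33 CPM in noEF. It rose 1.80-fold (log2 fold change 0.85, SE 0.21, edgeR adjusted p = 0.0209) and lost the call without EF 2 or without noEF 1, with an adjusted p of at most 0.125. Its obligate partner Bard1 was at 0.27 (SE 0.27), with 6.89 and 4.93 CPM in EF and 4.52 and 5.29 CPM in noEF, so the groups overlapped. Brca2, which acts with BRCA1 in recombination, was at 0.08 (SE 0.24), with 5.63 and 6.30 CPM in EF and 5.41 and 5.92 CPM in noEF. Palb2, the bridge between BRCA1 and BRCA2, was the least abundant member in CPM, at 1.18 and 2.32 CPM in EF and 0.860 and 0.833 CPM in noEF, and its log2 fold change of 1.04 had an SE of 0.58. Whether the change of Brca1 differed from that of Bard1 or Brca2 was not tested.

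Strand exchange genes held 2 calls among 8, where 3.83% of all genes tested were called higher. Rad51ap1, an accessory factor of strand invasion (chromosome 6, 126923050 to 126939587), had the largest change of the called members, at 12.1 and 7.36 CPM in EF and 4.95 and 3.87 CPM in noEF. The log2 fold change was 1.14 (SE 0.27, edgeR adjusted p = 0.0177), but the EF libraries lay far apart, and without EF 1 it was 0.74 (adjusted p = 0.254). Xrcc2, which acts in strand exchange (chromosome 5, 25689812 to 25705825), had 8.40 and 7.94 CPM in EF and 5.10 and 4.28 CPM in noEF. It stood just inside the threshold (log2 fold change 0.80, SE 0.24, edgeR adjusted p = 0.0466) and was called in 4 of its 12 alternatives. Just outside it stood Rad54l, a DNA motor of the strand exchange step, with 7.87 and 6.65 CPM in EF and 2.67 and 4.70 CPM in noEF (0.98, SE 0.29, edgeR adjusted p = 0.0522), and it was called in 6 of 12 alternatives, more often than Xrcc2. Exons of Rad54l overlap 1184 bases of Lrrc41 on the opposite strand, and Lrrc41 was at 0.10. Its relative Rad54b was at 0.72 (SE 0.34), and 35.8% of its exon bases are shared with Fsbp on the same strand. The other strand exchange genes Xrcc3, Rad51c, Rad51b and Rad51d were at 0.75, 0.38, 0.33 and 0.31, and none of these 4 passed. The junction nuclease genes Mus81 and Eme1 were at 0.09 (SE 0.15) and 0.48 (SE 0.53), with overlapping groups in both.

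**Figure D1:**
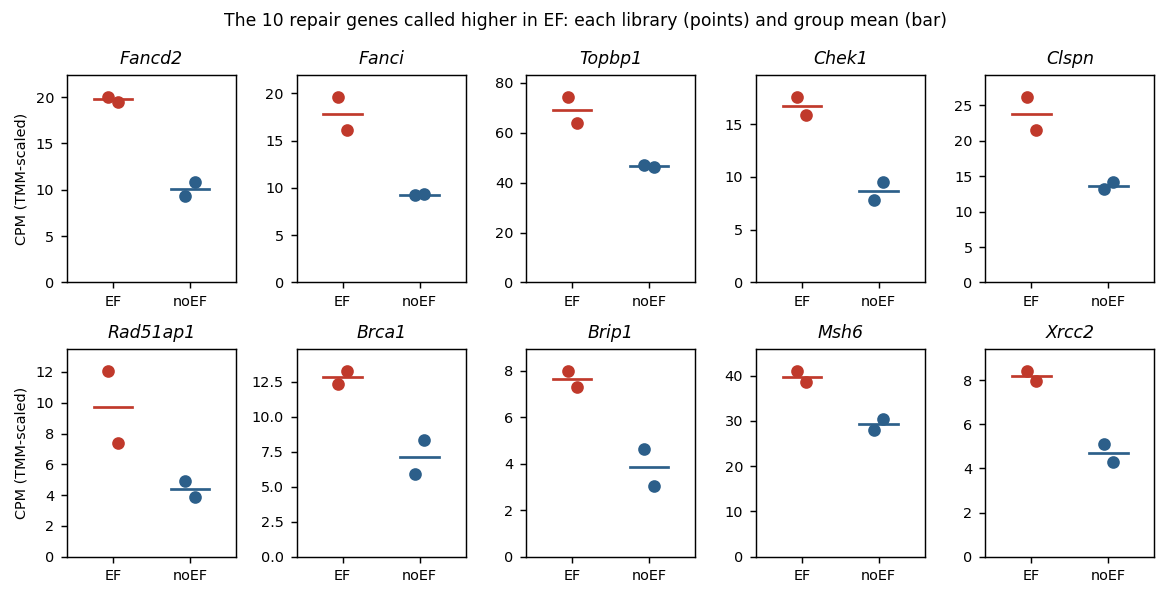
CPM of the 10 repair genes called higher in EF, with EF at the left and noEF at the right of each panel. Points are libraries, bars are group means (n = 2 each) and every y axis starts at 0. In each panel both EF points lie above both noEF points, an order that picking called genes favours and that 27.6% of all genes tested show. The EF points of Rad51ap1 (12.1 and 7.36 CPM) are the farthest apart relative to their mean.

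Of 9 Fanconi genes 3 rose, against 3.83% called higher over all genes tested. Fancd2 (ENSMUSG00000034023, chromosome 6, 113531682 to 113597017) and Fanci (chromosome 7, 79391929 to 79450264) encode the clamp that is ubiquitinated at a crosslink. Fancd2 had 20.0 and 19.5 CPM in EF and 9.37 and 10.8 CPM in noEF, which gave a log2 fold change of 0.97 ± 0.17 (SE) and the smallest edgeR adjusted p of all members, 0.00253. For Fanci the values were 19.6 and 16.1 CPM in EF and 9.22 and 9.34 CPM in noEF (0.94, SE 0.18, edgeR adjusted p = 0.00432). In both genes each EF library lay far above each noEF library, and both were called under all 12 alternatives. Fanci shares 921 exon bases with Polg on the opposite strand, but Polg had a log2 fold change of 0.12 and was not called (edgeR adjusted p = 0.509). Brip1, the helicase that binds BRCA1 (chromosome 11, 86058138 to 86201193), had 7.98 and 7.31 CPM in EF and 4.64 and 3.06 CPM in noEF. Its log2 fold change was 0.99 (SE 0.27, edgeR adjusted p = 0.0325), called in 7 of 12 alternatives.

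The enzymes that ubiquitinate the clamp were not called. Ube2t, the conjugating enzyme, had 13.6 and 12.8 CPM in EF and 12.5 and 11.2 CPM in noEF (0.15, SE 0.18). Fancl, the ligase, had 7.09 and 11.6 CPM in EF and 10.8 and 7.43 CPM in noEF (0.03, SE 0.26), so that both noEF values lay between the EF values. Fancb, a core complex subunit on chromosome X, was the member with the largest log2 fold change, 1.20 (SE 0.37), at 3.64 and 3.81 CPM in EF and 1.51 and 1.73 CPM in noEF, and narrowly missed the threshold (edgeR adjusted p = 0.0554). Fanca, Fancm and Fancc were at 0.71, 0.47 and 0.41 with edgeR adjusted p-values of 0.167, 0.238 and 0.246. In noEF, Fanca was at 2.83 and 5.26 CPM, which left it called only without noEF 2 (1.22, adjusted p = 0.0123).

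Of the 5 end joining genes 0 were called, against 8.82% of all genes tested. An unadjusted edgeR p under 0.05 was found for 2 of them, against 3393 of all 14263 genes tested. Xrcc5 and Xrcc6 encode the Ku dimer that binds broken ends. Xrcc5 had 32.4 and 28.0 CPM in EF and 31.7 and 28.3 CPM in noEF, a log2 fold change of 0.01 with an SE of 0.135, and Xrcc6 had 39.0 and 33.1 CPM in EF and 34.4 and 34.9 CPM in noEF (0.06, SE 0.13). For both, the groups overlapped. Prkdc, the catalytic subunit of the DNA-dependent kinase, was at 0.38 (SE 0.16, edgeR adjusted p = 0.145), with 21.3 and 21.6 CPM in EF above 14.9 and 18.0 CPM in noEF. The ligase gene Lig4 was at 0.11 (SE 0.31). Polq, the polymerase of a separate, microhomology-based joining route and the S-phase-linked gene of this group, had 4.79 and 4.70 CPM in EF and 2.70 and 2.47 CPM in noEF. It missed the threshold (log2 fold change 0.88, SE 0.31, edgeR adjusted p = 0.0916) and was called in 0 of 12 alternatives.

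In mismatch and base excision repair 1 of 5 genes was called, against 3.83% called higher over all genes tested. Msh6, which recognises mismatches behind the fork (chromosome 17, 87975062 to 87990892), had 41.0 and 38.5 CPM in EF and 28.1 and 30.3 CPM in noEF. The change was the smallest among the called members, 1.36-fold (log2 fold change 0.44, SE 0.12, edgeR adjusted p = 0.0377), and it was called in 8 of 12 alternatives, not with the replicate block or without EF 1, EF 2 or noEF 1. Pms2, which acts after mismatch recognition, was at 0.35 (SE 0.24). Ung, the glycosylase that removes uracil from DNA, was at 0.48 (SE 0.21, edgeR adjusted p = 0.173). Parp1, the poly(ADP-ribose) polymerase that senses strand breaks, had 95.4 and 83.6 CPM in EF and 75.9 and 79.7 CPM in noEF (0.20, SE 0.10, edgeR adjusted p = 0.230). The scaffold gene Xrcc1 had 19.5 and 19.8 CPM in EF just below 21.5 and 20.8 CPM in noEF (-0.11, SE 0.14), the single member of 48 whose EF libraries both lay under its noEF libraries, an order found in 26.8% of all genes tested.

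**Figure D2:**
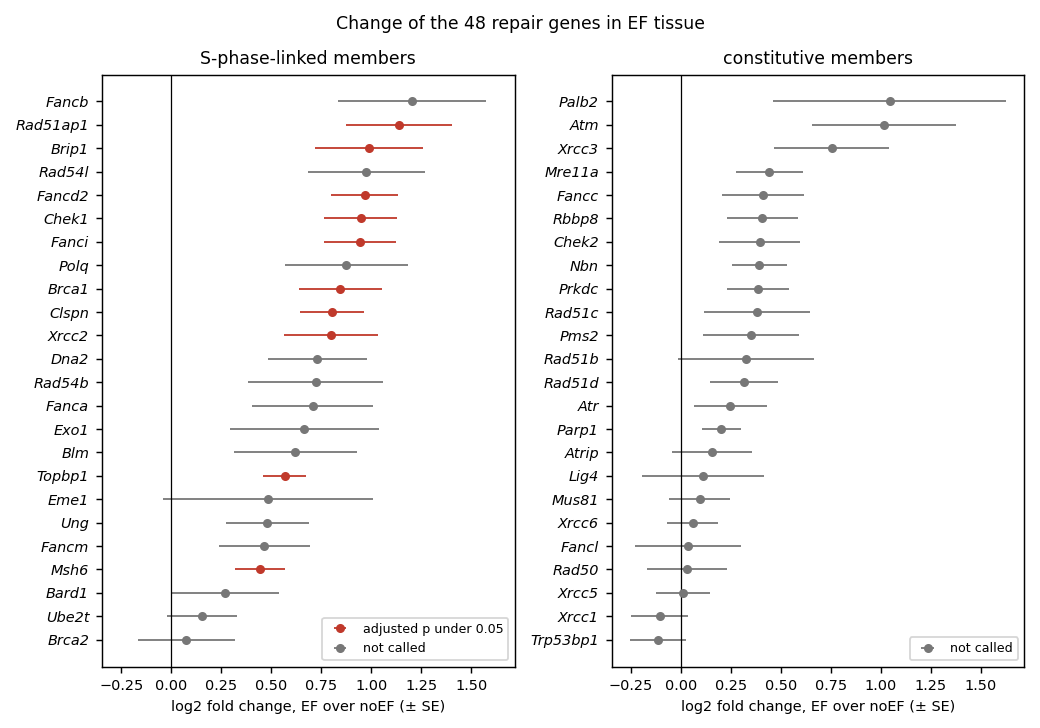
Log2 fold change of EF over noEF with its standard error for the 24 S-phase-linked members (left) and the 24 constitutive members (right), red where the edgeR adjusted p was under 0.05. All 10 called genes stand in the left panel, between 0.44 and 1.14, and 2 genes of the right panel, Xrcc1 and Trp53bp1, lie below 0.

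Read across the 4 libraries, both EF libraries lay above both noEF libraries in 19 of 24 S-phase-linked and 13 of 24 constitutive members, against 27.6% of all tested genes. All 24 S-phase-linked and 22 of 24 constitutive log2 fold changes were above 0, against 7294 of the 14263 genes tested. No constitutive member passed the test, where 3.83% of all genes tested were called higher and 4.99% lower. The median fold of the class was 1.25, against 1.01 for all genes tested. The median fold between the replicates was 1.13 in EF and 1.20 in noEF for the S-phase-linked members, and 1.14 and 1.17 for the constitutive ones. EF 1 was above EF 2 in 19 of 24 S-phase-linked members.

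**Figure D3:**
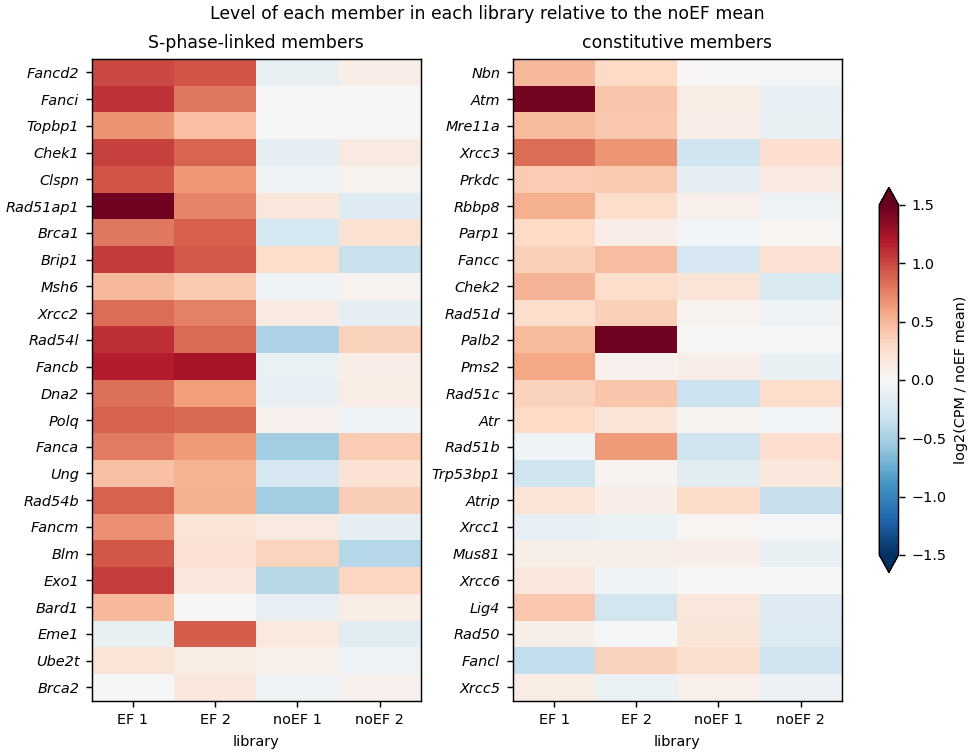
Level of each of the 48 members in each library as log2 of CPM over the noEF mean, with S-phase-linked members at the left and constitutive members at the right, ordered by p within each class (red higher, blue lower, colours saturate beyond 1.5 in either direction). The upper rows of the left panel are red in both EF columns, while lower rows such as Exo1 and Blm are red mainly in EF 1, and Atm and Palb2 each stand out in 1 EF library.

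A ratio taken within a library does not depend on how the libraries were scaled. Counts of the S-phase-linked members summed to 12534 and 10619 in EF and 6562 and 7238 in noEF, and those of the constitutive members to 16625 and 15573 in EF and 13183 and 13621 in noEF. The ratio of the S-phase-linked to the constitutive sum was 0.754 and 0.682 in EF (0.718 ± 0.051, SD, n = 2) and 0.498 and 0.531 in noEF (0.515 ± 0.024, SD, n = 2). The EF mean was 1.40 times the noEF mean, and the groups did not overlap. As the classes and members were chosen with results of these data known, no test was run on this ratio. Leaving out Parp1, Trp53bp1 and Topbp1, the most abundant members in CPM, gave 1.37, a choice made after the data were seen. With 10 members of debatable class moved to the other class it was 1.31.

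Levels between genes were compared as CPM per kilobase of exon. The S-phase-linked members had a median of 1.32 in EF and 0.851 in noEF, and the constitutive members 2.17 in EF and 1.91 in noEF, against 4.66 in EF and 4.57 in noEF for all genes tested. Parp1, Xrcc5, Nbn and Msh6 were the most abundant on this scale in EF, at 16.9, 11.8, 11.3 and 9.14 in EF and 14.7, 11.8, 8.64 and 6.72 in noEF, where Xrcc6 (7.74) stood above Msh6. Across the 48 members the log2 fold change went with a low level (Spearman's rho -0.44 with mean CPM per kilobase), and hardly with exon length (0.13) or GC content (-0.09). These correlations run across genes that share the same 4 libraries, and they are given as descriptions. Low counts also carry the larger errors, as for Palb2 and Eme1.

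Other genes of DNA repair and the damage response moved in part. Over all genes tested 3.83% were called higher and 4.99% lower. Of a list of 95 such genes outside the members 94 were tested, 13 rose and 1 fell, with a median of 0.20 on the log2 scale. Those with the smallest p were Uhrf1, which maintains DNA methylation at the fork, the replicative ligase Lig1, the ATPase Fignl1, the ubiquitin ligase Rad18, the flap nuclease Fen1 and the translesion polymerase Rev1. Their log2 fold changes were 0.85, 0.68, 0.82, 1.00, 0.57 and 0.79, and the edgeR adjusted p ran from 0.00113 to 0.0287. The gene that fell was Mgmt, which removes alkyl groups from guanine, at 14.3 and 15.04 CPM in EF and 28.2 and 22.6 CPM in noEF (-0.79, SE 0.16, edgeR adjusted p = 0.00604). Of 26 p53 target genes 0 rose and 1 fell (Dcxr, -0.68, edgeR adjusted p = 0.0105), with a list median of 0.04. Both counts are near the shares over all genes tested. Pmaip1, an inducer of apoptosis, had the next smallest p and did not pass (0.52, edgeR adjusted p = 0.079).

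Cell division genes moved with the S-phase-linked members, where 3.83% of all genes tested were called higher and 4.99% lower. Of 39 DNA replication genes 20 rose and 0 fell, with a median log2 fold change of 0.61, and of 28 G2 and mitosis genes 21 rose and 0 fell, with a median of 0.65. Those with the smallest p were Rrm2 (a ribonucleotide reductase subunit) and Mcm6 (part of the replicative helicase), at 0.90 and 0.84, and Top2a (a topoisomerase) and Ccnb1 (cyclin B1), at 1.03 and 0.79. Summed CPM of the replication genes was 2092 and 2023 in EF and 1447 and 1462 in noEF. That of the G2 and mitosis genes was 1529 and 1447 in EF and 933 and 916 in noEF. The EF mean over the noEF mean was 1.42 for replication, 1.61 for mitosis, 1.57 for the S-phase-linked members and 1.13 for the constitutive members. Relative to the replication genes, the summed counts of the S-phase-linked members were 0.168 and 0.15 in EF and 0.139 and 0.147 in noEF, so EF 2 and noEF 2 were nearly equal on that scale. The constitutive members were at 0.223 and 0.221 in EF and 0.280 and 0.277 in noEF. What part the cell division genes' change has in that of the repair genes was not tested, and in bulk RNA more cells in cycle and more RNA per cell cannot be told apart.

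**Figure D4:**
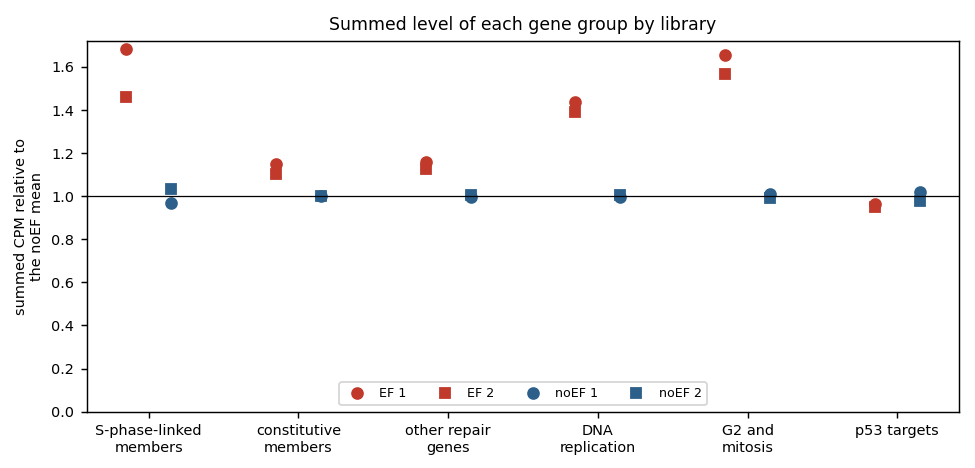
Summed CPM of each gene group in each library divided by the group's noEF mean, with EF libraries (red) left of noEF libraries (blue), circles for replicate 1 and squares for replicate 2, and a line at 1. The S-phase-linked members, replication genes and mitosis genes stand well above 1 in EF, the constitutive members and the other repair genes are at about 1.13 and 1.14 times the noEF mean, and the p53 target genes are slightly below 1.

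Total counts were 33748880 to 34554537 per library, and between 15548 and 15723 genes had a count. Markers of neural stem cells, the labelled cell type, were present, with Nes at a mean of 131 CPM in EF and 119 CPM in noEF and Sox2 at a mean of 306 CPM in EF and 369 CPM in noEF, while 2 of 12 such markers, Fabp7 and Sox9, were called lower (log2 fold changes -0.50 and -0.43, edgeR adjusted p = 0.00195 and 0.00521) and the sum of all 12 was 5342 and 5663 CPM in EF and 7152 and 6788 CPM in noEF. The summed astrocyte markers, with 5 of 10 called lower (among them Gfap, -1.45) and 0 higher, were at 12080 and 12140 CPM in EF and 16890 and 16170 CPM in noEF. Apoe, also called lower, made up most of these sums, at a mean of 6673 CPM in EF and 10310 CPM in noEF. The 5 markers not called were Slc1a3, Gjb6, Slc1a2, Aldh1l1 and S100b. Their log2 fold changes were 0.16, -0.35, -0.08, 0.03 and -0.02. Summed oligodendrocyte lineage markers, with 2 of 9 tested called lower, were at 2458 and 2805 CPM in EF and 2579 and 2428 CPM in noEF, and summed neuron markers, with 0 of 9 tested called, at 616 and 590 CPM in EF and 502 and 574 CPM in noEF. Among microglia and macrophage markers Cx3cr1, Csf1r, Aif1, Tmem119, Ptprc and Itgam had 0 counts, and the summed markers stood at 3.31 and 4.76 CPM in EF and 6.91 and 6.78 CPM in noEF. Fibroblast and mural cell markers summed to 10.2 and 6.10 CPM in EF and 4.61 and 4.46 CPM in noEF, with Lum at 0 and Acta2 the 1 gene of 4 tested called higher. Acta2 made up most of these sums, at a mean of 6.76 CPM in EF and 3.01 CPM in noEF. Of the 4 tested, 2 had a log2 fold change above 0 and 2 below. Pdgfrb was among the latter, with 0 counts in both EF libraries and 10 and 13 in noEF (edgeR adjusted p = 0.0912). Endothelial markers summed to 2.35 and 1.86 CPM in EF and 1.23 and 1.04 CPM in noEF, with Cdh5 at 0. The part of these markers in the repair gene differences was not tested.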

How the data were processed

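The authors deposited unscaled whole-number counts for each gene in 4 libraries. The submitters' processing notes name HISAT2 2.0.4, StringTie 2.2.1, DESeq2 1.44.0 and GRCm38 without saying what each was used for. How reads were counted, and with which strand setting, is not given in the sources read. Per the labels' protocols, poly(A) RNA was primed with random hexamers, with no strand-marking step.

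Low counts were removed with filterByExpr (count 10, total 15). After TMM scaling, 14263 genes were tested in edgeR 4.0.16 (R 4.3.3) by the robust quasi-likelihood F test, with calls at an adjusted p under 0.05. A positive log2 fold change means higher in EF, and its SE is its size over the square root of F. The fit was tested on simulated data with the same replicate variation for every gene and library, which cannot speak to uneven libraries. Alternatives were RLE or library-total scaling, no filter, a filter of 1 CPM in 2 libraries, DESeq2 1.42.0, limma-voom (limma 3.58.1), a replicate block, omission of each library, and removal of length and GC trends with mgcv 1.9.3. GENCODE M21 on GRCm38 gave exons and positions for all 48 members. Rows that lack an Ensembl identifier took 0.499% to 0.538% of counts.

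The members, classes and lists were chosen with earlier results of these data known. Any member could be named, with full values for called ones and for the smallest p in each role. Of the other repair genes the called ones with the 6 smallest p in each direction were named (1 was lower), of the replication, mitosis and p53 lists the 2 smallest p, and marker lists were given by their sum and defining markers. Fabp7, Sox9, Gfap, the other named astrocyte markers and Pdgfrb were added after their values were seen.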

Additional observations from a re-analysis of the deposited data

How the results depend on the processing

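All 10 called members kept their direction in all 12 alternatives, and 22 of their 120 values missed the threshold. Of the 574 values over all members 20 changed sign, all in members that were not called, and 23 gained a call. Over the 4 left-out libraries the members called higher ran from 4 to 13, the S-phase-linked ones from 4 to 12, the constitutive ones from 0 to 1, and among all genes those called higher from 217 to 790 and lower from 337 to 1065, with the lowest of each reached without EF 1. A group left with 1 library was assumed to vary like the other group. The S-phase-linked median ran from 0.63 to 0.87 and the constitutive one from 0.24 to 0.32 on the log2 scale. Constitutive members called higher numbered 2 with library totals, 1 without a filter, 1 with the length and GC trend removed and 2 with the debatable members moved, which gave a ratio of 1.31. With library totals the median of all genes shifted to 0.09 with 1138 genes higher and 505 lower; without a filter 915 were higher and 1203 lower. The constitutive median was 0.41 with library totals, 0.24 with the trend removed and 0.37 with members moved.

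Uncalled members whose sign changed when 1 library was left out ranged from -0.11 to 0.90 (Eme1), -0.01 to 0.15 (Brca2), -0.07 to 0.63 (Rad51b), -0.30 to 0.05 (Trp53bp1), -0.13 to 0.50 (Atrip), -0.02 to 0.20 (Mus81), -0.06 to 0.17 (Xrcc6), -0.28 to 0.41 (Lig4), -0.15 to 0.24 (Rad50), -0.36 to 0.35 (Fancl) and -0.10 to 0.11 (Xrcc5) on the log2 scale. With the length and GC trend removed Brca2 was at -0.08, Rad50 at -0.06, Lig4 at -0.0011 and Fancl at -0.00048. The cause of these changes was not tested.

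Replicate numbers did not pair the libraries (correlation of replicate deviations -0.0898), and no label says that they share a culture. With the replicate block 9 members were called higher, 8 of them among the 10 called without it, and 410 and 568 genes over all were higher and lower. Low counts limit Palb2, Eme1 and Fancb most.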
